A study of Bos taurus with 8 samples.

Results

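Levels of 10 genes of smooth muscle-type contraction were measured in cultured bovine mammary epithelial cells: the oxytocin receptor gene OXTR, the myosin light chain kinase gene MYLK, and ACTA2, ACTG2, MYH11, CNN1, TAGLN, CALD1, TPM2 and LMOD1. They are 10 of the 24754 names that the scanner files give, and every probe named as one of them was taken. That gave 26 probes of the 43415 kept, and 20 of them, from 9 genes, were among the 30702 probes that were well above background on at least 2 of the 8 arrays and could be tested. The genes were selected on measured values of these same arrays, because OXTR and MYLK were lower in the arrays of the hairpin-treated cells. Differences of these genes from the control arrays are therefore given as a description with no test. The comparison of one hairpin with the other sets no array against a control, and it was tested. The control arrays still enter its estimate of the spread and the filter on dim probes.

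The cells were primary mammary epithelial cells grown from gland tissue of 1 lactating Holstein cow and used at the fifth passage. RNA of cells with the EEF1D-1357 shRNA was hybridised to 3 arrays, RNA of cells with the EEF1D-1893 shRNA to another 3, and RNA of control cells, labelled as being without shRNA, to 2. Both hairpins target EEF1D, which encodes the delta subunit of the elongation factor that recharges eEF1A during translation. All arrays thus share one donor animal, no array of a non-targeting hairpin is among those labelled, and the sources used here do not settle whether the control cells carried a control construct. The labels do not say either whether the replicates came from separate cultures, so a p-value here speaks only of the scatter among these arrays, which may be technical. The 3 EEF1D-1357 arrays and control replicate 2 were on slide 1, and the 3 EEF1D-1893 arrays and control replicate 1 were on slide 2.

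Myoepithelial cells form the basal layer around the milk-producing alveoli. Oxytocin released during suckling binds its receptor on these cells, the receptor acts through Gq and phospholipase C to raise calcium, and calcium with calmodulin activates myosin light chain kinase, which phosphorylates the myosin light chain and starts contraction that ejects the milk. The filament genes described here, with smooth muscle alpha- and gamma-actin, smooth muscle myosin and the actin-binding proteins calponin, transgelin, caldesmon, tropomyosin and leiomodin, are shared by myoepithelial cells, smooth muscle and pericytes, and several are also active in cultured epithelial cells and fibroblasts.

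A level below is the log2 of the processed spot intensity minus that array's 75th percentile, so that 0 stands for the brightness that 75 percent of an array's probes do not exceed. Levels were compared between arrays within a probe and not between probes. EEF1D itself, through its brightest probe, was at 5.97, 5.85 and 5.09 in the EEF1D-1357 arrays, at 5.99, 5.74 and 5.76 in the EEF1D-1893 arrays, and at 7.11 and 6.14 in the controls. All 6 hairpin arrays were below both controls, as for 9.98% of all tested probes. Between 60.7% and 71.6% of probes were well above background on an array, and the number of arrays limits the precision. No probe passed an adjusted p under 0.05 (limma, Benjamini-Hochberg over the 30702 probes), which is 0.0% called both for the hairpins against the controls and for one hairpin against the other. The unadjusted p was under 0.05 for 5656 and 1913 probes in these comparisons.

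The probes decide what each of these values can show, so those on which the results turn are given here, as the scanner files hold them, 5′ to 3′ and in lower case. Of the OXTR and MYLK probes the first 30 of 60 bases are shown, and the capitals mark the stretch of 23 bases that both MYLK windows hold.
OXTR A_73_100134: gattctcttcggagactgtctggcacaggc
OXTR A_73_P416286: gtatagtgctgtatagagtactgtactgaa
MYLK A_73_P096221: ggaagagTGAAACAAAGCCAGCGAGAAGCA
MYLK A_73_111992: TGAAACAAAGCCAGCGAGAAGCAgtttcta
Over their full length the MYLK probes share 53 of 60 bases, so they read the same stretch of the transcript and are not independent measurements. The array design places them at chr1:69082127-69082186 and chr1:69082120-69082179 on the minus strand of the Btau_3.1 build, and the OXTR probes at chr22:18295234-18295293 and chr22:18294811-18294870 on the plus strand. Exon and UTR boundaries of that build were not used here.

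OXTR was well above background in the control arrays alone. Its brighter probe, A_73_100134, was at -7.06, -6.59 and -7.16 in the EEF1D-1357 arrays, at -5.68, -6.39 and -5.85 in the EEF1D-1893 arrays, and at -4.42 and -4.40 in the controls. It was well above background in 2 of 2 controls and in 0 of 6 hairpin arrays, and the groups did not overlap. For 9.98% of all tested probes all hairpin arrays were below both controls. The mean was -4.41 ± 0.02 (SD, n = 2) in the controls, -6.94 ± 0.30 (SD, n = 3) with EEF1D-1357 and -5.97 ± 0.37 (SD, n = 3) with EEF1D-1893. Since the level in the hairpin arrays was not well above background, only a bound can be given for the fold. Each hairpin array was set to its lowest signal well above background, or to its own OXTR value where that was higher (mean -5.47 over the 6 arrays). By that rule OXTR was at least 2.08-fold lower in the hairpin arrays than in the controls. That bound was 1.91-fold for EEF1D-1357 and 2.26-fold for EEF1D-1893, and 1.87-fold for both hairpins with quantile-normalized values. These bounds are approximate, since a spot that is not well above background can exceed the lowest signal that is. In EEF1D-1893 replicate 3 OXTR was at -5.85, above that array's lowest such signal of -6.008. The bounds hold on the scale of the background-subtracted intensity. There the fitted difference was -2.04 on the log2 scale (SE 0.23). With normexp background correction, which adds an offset of 50 to every intensity, and quantile normalization it was -0.69 (SE 0.13), a smaller fold than these bounds. The second OXTR probe, A_73_P416286, was well above background on 0 of 8 arrays and gives no level. In such cultures fewer cells of a type and less RNA per cell cannot be told apart.

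MYLK, whose product switches on the myosin motor, had the largest mean difference from the controls among the tested probes of these genes. Probe A_73_P096221 was at -4.10, -2.90 and -4.60 with EEF1D-1357, at -4.32, -4.84 and -1.55 with EEF1D-1893, and at -1.0 and 0.56 in the controls, and it was well above background on all 8 arrays. All 6 hairpin arrays were below both controls, as for 9.98% of all tested probes, but EEF1D-1893 replicate 3 lay close to control replicate 1. Averaged over both hairpins, the level was lower than in the controls by a log2 fold change of -3.50 (SE 0.92), which leaves 8.86% of the control signal. The difference was -3.65 (SE 1.02) for EEF1D-1357 and -3.35 (SE 1.02) for EEF1D-1893. The overlapping probe, A_73_111992, gave -3.70 (SE 1.01), and the difference between the probes had an SD of 0.19 over the 8 arrays. The controls differed from each other by 1.56, and without control replicate 2 the MYLK difference was -2.72 (SE 1.25). Without EEF1D-1893 replicate 3 it was -4.00 (SE 0.58).

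**Figure D1:**
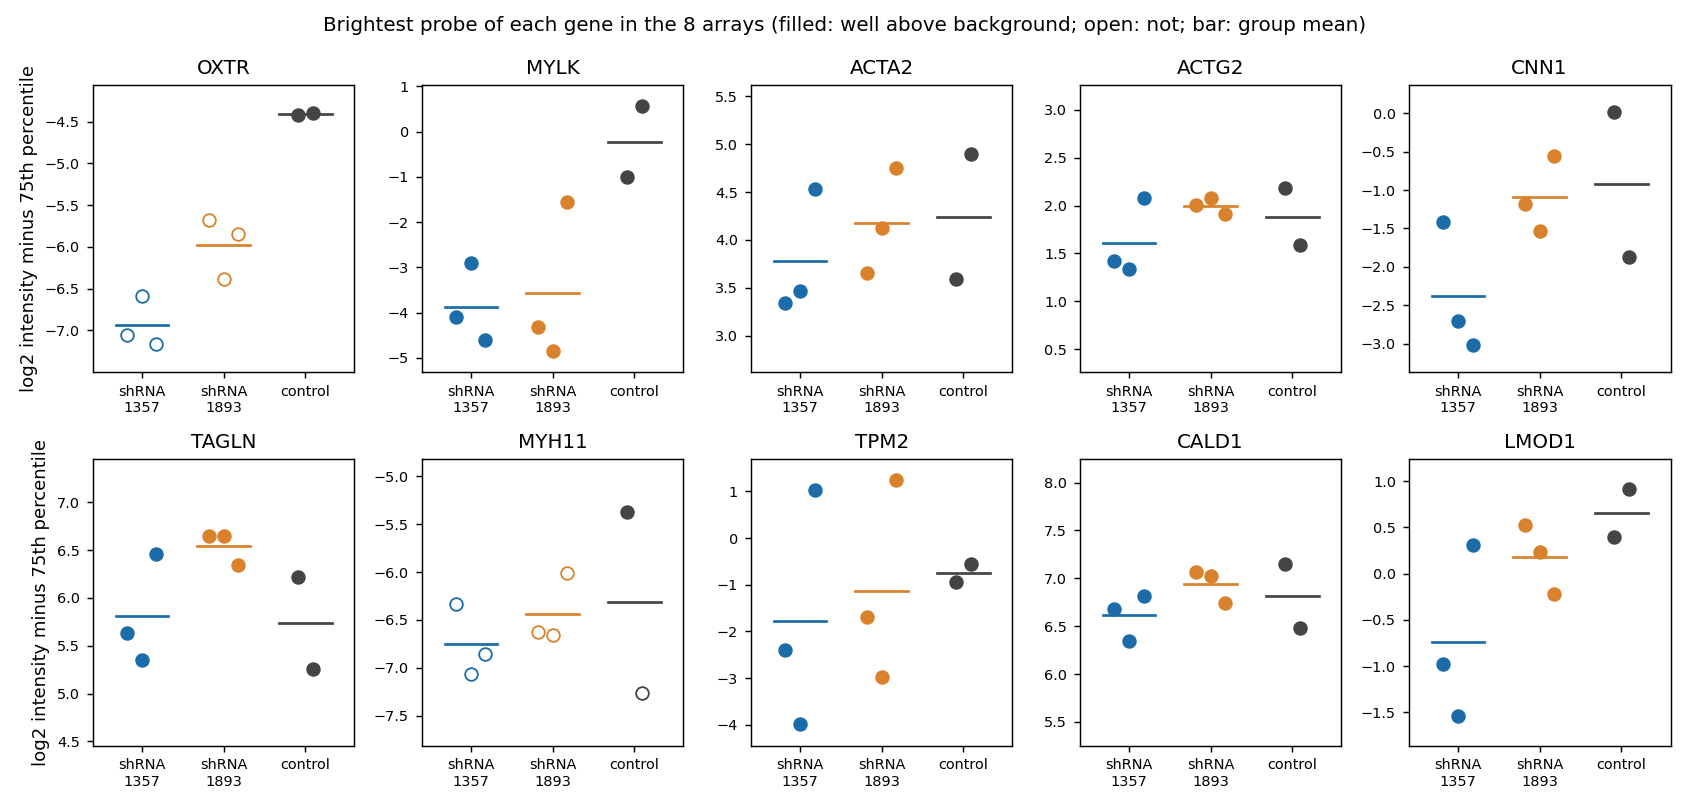
The brightest probe of each of the 10 genes is plotted for the 8 arrays, with the array group on the x axis and the log2 intensity minus the array's 75th percentile on the y axis; filled points were well above background, open points were not, and bars are group means. The OXTR and MYLK points of the 6 hairpin arrays lie below both controls, OXTR is filled in the controls alone, and the TPM2 points of replicate 3 of both hairpins lie above all others.

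The genes that code for the actin filament did not share that pattern. ACTA2, smooth muscle alpha-actin and the usual marker of myoepithelial cells, has 1 probe, which was at 3.34, 3.47 and 4.53 with EEF1D-1357, at 3.65, 4.13 and 4.75 with EEF1D-1893 and at 3.59 and 4.90 in the controls. The groups overlapped, and the mean difference of the hairpins from the controls was -0.27 (SE 0.47). The controls lay 1.31 apart, so that the difference was -0.92 (SE 0.55) without control replicate 1 and 0.39 (SE 0.55) without control replicate 2.

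ACTG2, the gamma-actin of visceral smooth muscle, is read by 3 probes, and the sequence of the one whose range over the arrays was widest follows.
ACTG2 A_73_115488: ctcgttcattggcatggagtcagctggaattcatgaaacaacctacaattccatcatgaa
The array design lists another, A_73_P099801, also against the ACTC1 transcript, so its signal cannot be given to ACTG2 alone. Probe A_73_P099801 stayed within 0.84 log2 units over the 8 arrays. It was at 1.42, 1.34 and 2.08 with EEF1D-1357, at 2.01, 2.08 and 1.91 with EEF1D-1893 and at 2.18 and 1.59 in the controls. Probe A_73_115488 ranged over 3.00 log2 units. It was at -4.64, -4.73 and -2.32 with EEF1D-1357, at -2.82, -5.32 and -2.65 with EEF1D-1893 and at -4.03 and -4.51 in the controls. Its 3 high arrays, EEF1D-1357 replicate 3 and EEF1D-1893 replicates 1 and 3, were above both controls, and the other 3 hairpin arrays were below both. The third probe, A_73_P082186, followed it with an SD of the difference of 0.23, whereas the SD of its difference from the probe shared with ACTC1 was 0.96. Against the controls the 3 probes gave -0.08 (SE 0.24), 0.52 (SE 0.88) and 0.77 (SE 0.78), and none separated the groups.

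MYH11, the smooth muscle myosin heavy chain, was at or near background. Of its 4 probes, 3 were well above background on 0 of 8 arrays and 1, A_73_P035431, on control replicate 1 alone, where it was at -5.37 against -7.26 in control replicate 2. None could be tested. The motor-domain part of the transcript was read by the probe below, placed from base 714 of the reference transcript and not well above background on any array.
MYH11 A_73_P106816: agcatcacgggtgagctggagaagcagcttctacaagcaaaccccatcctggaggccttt
The level of MYH11 in the 3 groups can therefore not be compared.

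Of the actin-binding regulators, CNN1, which encodes calponin, an inhibitor of myosin ATPase activity, was at -1.42, -2.70 and -3.02 with EEF1D-1357, at -1.18, -1.53 and -0.56 with EEF1D-1893 and at 0.02 and -1.87 in the controls. The controls spanned 1.88 log2 units, more than the range within either hairpin. The hairpins differed from the controls by -0.81 (SE 0.59), which was 0.13 (SE 0.63) without control replicate 1 and -1.75 (SE 0.63) without control replicate 2. The second CNN1 probe was well above background on 0 arrays.

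TAGLN, which encodes the actin cross-linking protein transgelin, was bright on every array. Its probe A_73_108617 was at 5.63, 5.35 and 6.46 with EEF1D-1357, at 6.65, 6.65 and 6.34 with EEF1D-1893 and at 6.22 and 5.26 in the controls. The EEF1D-1893 arrays were above both controls and those of EEF1D-1357 were not all so. The mean difference from the controls was 0.44 (SE 0.35), which was 0.92 (SE 0.40) without control replicate 1 and -0.04 (SE 0.40) without control replicate 2, and the second probe gave 0.51 (SE 0.33).

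CALD1, the gene of caldesmon, which restrains actin-activated myosin and has a non-muscle form in most cells, did not differ from the controls by more than its spread. Its brightest probe, A_73_P103601, lay between 6.35 and 7.15 on the 8 arrays, a range of 0.80, and 41.5% of all tested probes had a smaller one. The other CALD1 probes ranged over 1.03 and 1.04, where the median range of all tested probes was 0.91. The 3 CALD1 probes differed from the controls by between -0.04 (SE 0.22) and 0.01 (SE 0.25).

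TPM2, which encodes beta-tropomyosin, a coiled coil that lies along the actin filament, varied more between replicates of one hairpin than between groups. Probe A_73_P252846 was at -2.39, -3.99 and 1.04 with EEF1D-1357, at -1.70, -2.97 and 1.24 with EEF1D-1893 and at -0.95 and -0.56 in the controls. Replicate 3 of both hairpins was above both controls and the other 4 hairpin arrays were below both. The 8 arrays spanned 5.23 log2 units (37.5-fold), a range wider than that of 99.3% of tested probes. The mean difference of -0.70 (SE 1.45) from the controls was within this spread. With replicate 3 of both hairpins left out, a choice made after seeing the values, the difference was -2.0 (SE 0.57).

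The same profile came from probes to distant parts of the transcript. The first pair below overlaps by the 17 bases in capitals, and the third lies further downstream, from base 732 of the reference transcript as against 229 and 272.
TPM2 A_73_P313286: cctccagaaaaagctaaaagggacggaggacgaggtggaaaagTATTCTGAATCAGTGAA
TPM2 A_73_P382346: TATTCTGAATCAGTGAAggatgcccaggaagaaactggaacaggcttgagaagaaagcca
TPM2 A_73_P252846: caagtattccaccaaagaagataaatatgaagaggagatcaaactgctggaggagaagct
The SD of the difference between the third probe and the others was 0.12 and 0.20 over the 8 arrays. The array design places the first at chr8:62518794-62518853 and the third within chr8:62514631-62515192 of Btau_3.1, on the minus strand, in bovine TPM2. For the second it gives chr8:62512136-62512148, a span of 13 bases, which does not hold the 60 bases of that probe. Another probe, A_73_P100526, was well above background in replicate 3 of each hairpin alone, at -4.20 and -4.66. The fifth, A_73_P040371, from base 1704, departed from the rest, with an SD of the difference from A_73_P252846 of 1.94, and its highest level, -3.81, was in EEF1D-1893 replicate 2.

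**Figure D2:**
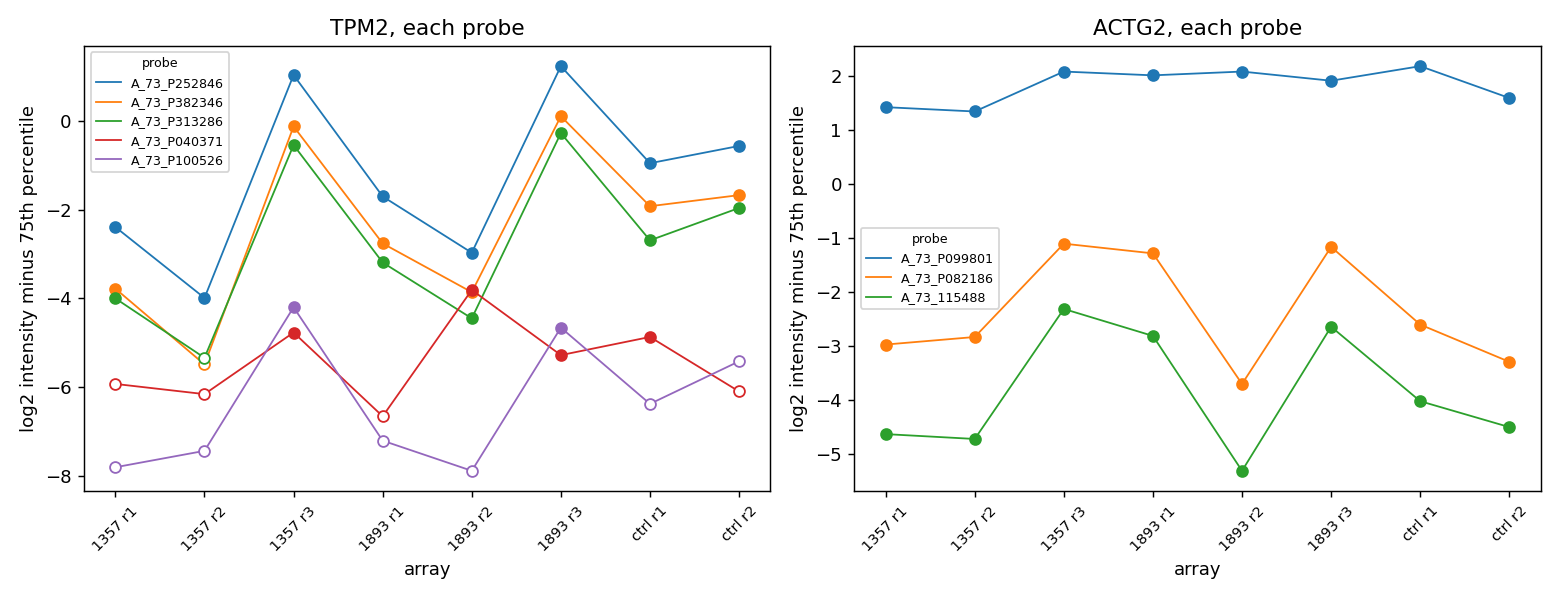
The probes of TPM2 (left) and ACTG2 (right) are plotted across the 8 arrays, 1 line per probe, with the log2 intensity minus the array's 75th percentile on the y axis; filled points were well above background and open points were not. The 3 brightest TPM2 probes rise and fall together and peak in replicate 3 of each hairpin, and the ACTG2 probe that is also listed against ACTC1 stays between 1.34 and 2.18 while the other ACTG2 probes range over 2.59 and 3.00 log2 units.

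LMOD1, leiomodin, a nucleator of actin filaments in smooth muscle, was the other gene with a tested probe that separated the hairpin arrays from the controls. Probe A_73_112091 was at -6.53, -6.78 and -5.74 with EEF1D-1357, at -5.16, -5.22 and -5.64 with EEF1D-1893 and at -4.59 and -5.11 in the controls. All 6 hairpin arrays were below both controls, as for 9.98% of all tested probes. Of the EEF1D-1357 arrays 0 of 3 were well above background, as against 3 of 3 with EEF1D-1893 and 2 of 2 controls. LMOD1 by this probe was at least 1.41-fold lower with EEF1D-1357 than in the controls (1.19-fold with quantile-normalized values).
LMOD1 A_73_112091: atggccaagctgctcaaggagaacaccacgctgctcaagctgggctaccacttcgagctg
The brighter LMOD1 probe, A_73_P035901, was at -0.98, -1.54 and 0.31 with EEF1D-1357, at 0.53, 0.23 and -0.22 with EEF1D-1893 and at 0.40 and 0.92 in the controls. It overlapped the controls in 1 array, EEF1D-1893 replicate 1, and gave -0.94 (SE 0.46) for both hairpins and -1.40 (SE 0.52) for EEF1D-1357.

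Counted over the 20 tested probes, 4 had all 6 hairpin arrays below both controls (1 of OXTR, 2 of MYLK and 1 of LMOD1), beside 9.98% of all tested probes, and 0 had all of them above, beside 8.14%. The genes were selected on this contrast, and nothing is read from that count. The OXTR probe was among the 20 only through the 2 controls, where it was high. TPM2 probe A_73_P100526 was so only through replicate 3 of each hairpin. Against the controls 14 of the 20 were lower and 6 higher, with a median log2 fold change of -0.45, where 55.8% of all tested probes were lower and their median was -0.06. Over the 13 of these probes that were well above background on all 8 arrays, 8 were lower and 5 higher, with a median of -0.04 where that of all such probes was -0.03. With normexp and quantile normalization the median over the 20 was -0.16. Leaving out single arrays moved the median between -0.14 without EEF1D-1357 replicate 2 and -0.62 without EEF1D-1893 replicate 3. With median scaling the 20 probes split into 11 lower and 9 higher, and with quantile normalization into 12 and 8. With the replicate number as a block they split into 16 and 4, with a median of -0.69. With only the brightest probe of each gene, 8 of 9 were lower, with a median of -0.7.

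The hairpins were then compared with each other, a contrast that the choice of genes did not use. Of the 20 probes, 19 were lower with EEF1D-1357 than with EEF1D-1893, as were 57.5% of all tested probes, and the median log2 fold change was -0.52 against -0.05. None of the 20 passed the test: the adjusted p ranged from 0.775 to 0.991 (limma, Benjamini-Hochberg over all tested probes). With the hairpin arrays fitted alone, 0 of the 20 passed as well. The unadjusted p was under 0.05 for 4 of them, from OXTR, TAGLN, CALD1 and LMOD1 (A_73_112091), and for 6.23% of all tested probes. The OXTR probe was not well above background in any array of either hairpin, and this LMOD1 probe in none of EEF1D-1357. Their values are therefore no measure of a difference between the hairpins. Over the 13 probes that were well above background on all 8 arrays, which leave out both, 13 were lower and 0 higher. These 13 come from 8 genes, and probes of the same gene are not separate results. The median of these 13 was -0.48, where that of all such probes was -0.03, and hairpin and slide coincide in this count. In 3 of the 20 probes, which include these same OXTR and LMOD1 probes, all EEF1D-1357 arrays were below all EEF1D-1893 arrays, beside 13.2% of all tested probes, and in 0 they were all above, beside 6.96%. The count of probes lower with EEF1D-1357 fell to 12 without EEF1D-1893 replicate 3 and to 14 without EEF1D-1357 replicate 2, and the median moved between -0.91 without EEF1D-1357 replicate 3 and -0.29 without EEF1D-1357 replicate 2. Among the gene lists described below, 36 of 44 other contractile genes were also lower with EEF1D-1357 (median -0.19). So were 12 of 14 fibroblast markers (-0.25) and 4 of 5 pericyte markers (-0.32). In the basal, luminal and oxytocin signalling lists 7 of 18, 5 of 15 and 12 of 28 were lower, with medians of 0.06, 0.07 and 0.05.

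For single genes the intervals of that difference were wide. CNN1 differed by -1.29 (95% interval -2.68 to 0.11, adjusted p = 0.775 by limma), with the lowest EEF1D-1893 array, at -1.53, below the highest EEF1D-1357 array, at -1.42. The second TAGLN probe, A_73_P291026, differed by -0.94 (-1.73 to -0.16, adjusted p = 0.775 by limma), and the brighter one by -0.73 (-1.55 to 0.09). CALD1 probe A_73_P371341 differed by -0.57 (-1.01 to -0.12, adjusted p = 0.775 by limma). LMOD1 probe A_73_P035901 differed by -0.92 (-2.01 to 0.17). MYLK differed by -0.30 (-2.45 to 1.85, adjusted p = 0.953 by limma), an interval that leaves room for a difference of either sign. TPM2 differed by -0.64 (-4.03 to 2.76). For OXTR both groups were below background, and no fold is given.

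**Figure D3:**
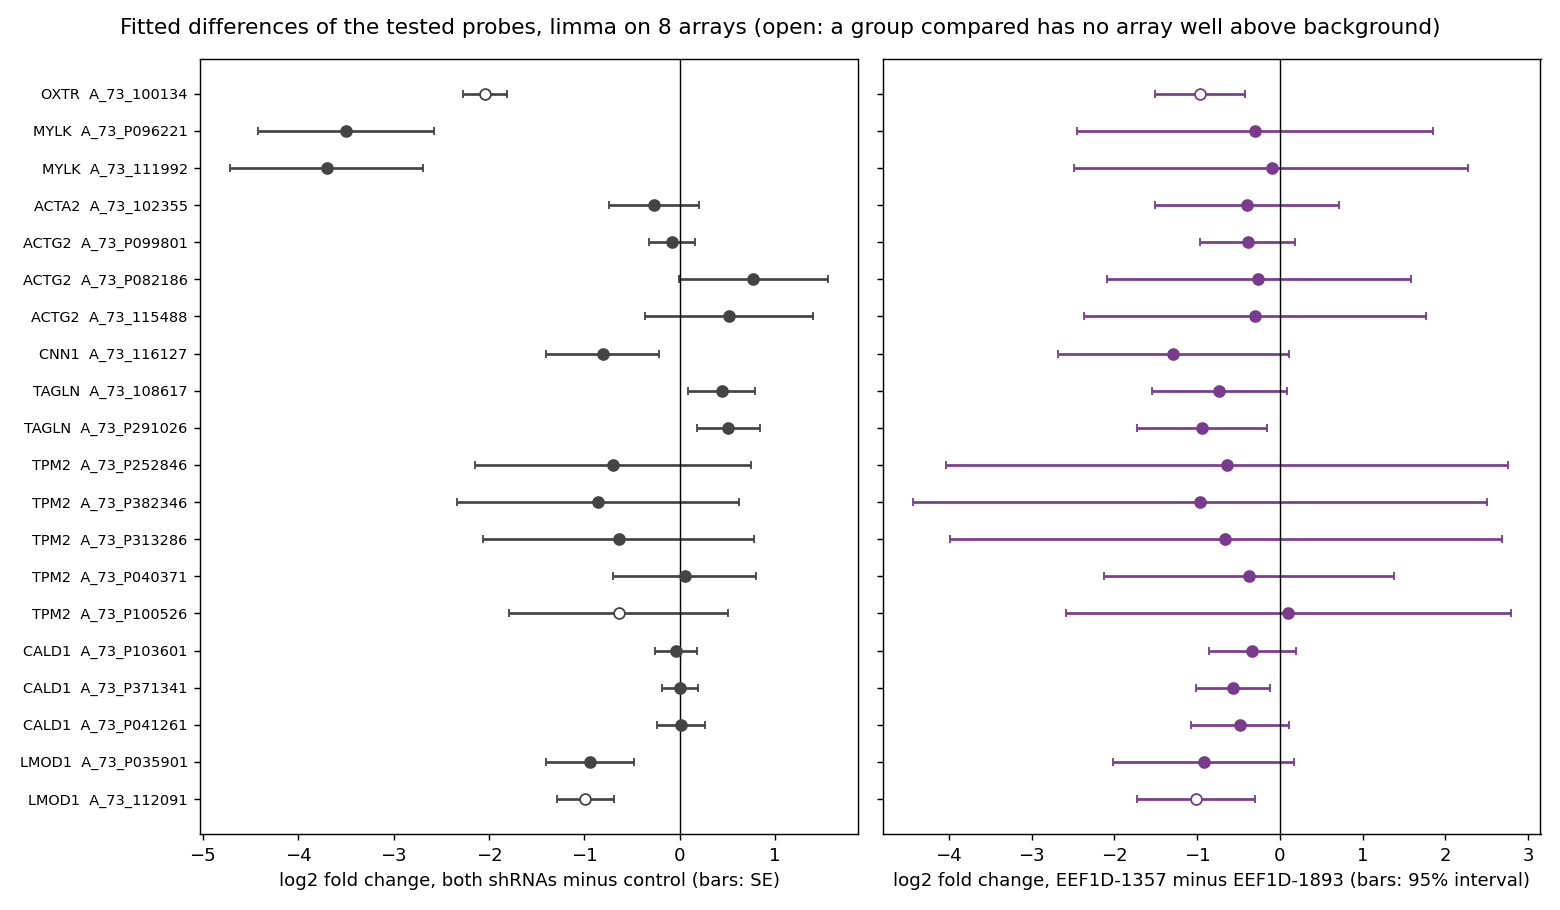
Fitted log2 fold changes are plotted for the 20 tested probes, on the left for both hairpins minus control with the SE as bars and on the right for EEF1D-1357 minus EEF1D-1893 with the 95% interval as bars; open points mark probes for which a group compared has no array well above background. On the left the OXTR and MYLK probes lie furthest below 0, and on the right 19 of the 20 points lie below 0, most with an interval that includes it.

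Each hairpin was on its own slide, so hairpin and slide coincide, with 1 control on each slide to bridge them. On each slide OXTR was well above background in the control and in none of the hairpin arrays. Against the control of the same slide, MYLK differed by -4.42 on slide 1 (EEF1D-1357) and by -2.57 on slide 2 (EEF1D-1893), and LMOD1 (A_73_P035901) by -1.65 and -0.22. For these genes the sign was the same on both slides. ACTA2 was at -1.12 on slide 1 and at 0.59 on slide 2, where the sign turned. CNN1 was lower on both, by -0.51 and -1.10, and TAGLN higher on both, by 0.56 and 0.32. With slide as a block, 13 of the 20 probes were lower with EEF1D-1357 than with EEF1D-1893 in place of 19. The median of the 20 was then -0.67, where that of all tested probes was 0.11. The sign of the hairpin difference turned for the brightest probes of CNN1 (0.59, SE 0.95), TAGLN (0.23, SE 0.60), CALD1 (0.34, SE 0.33) and ACTG2 (0.20, SE 0.42). Each within-slide value rests on a single control array.

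**Figure D4:**
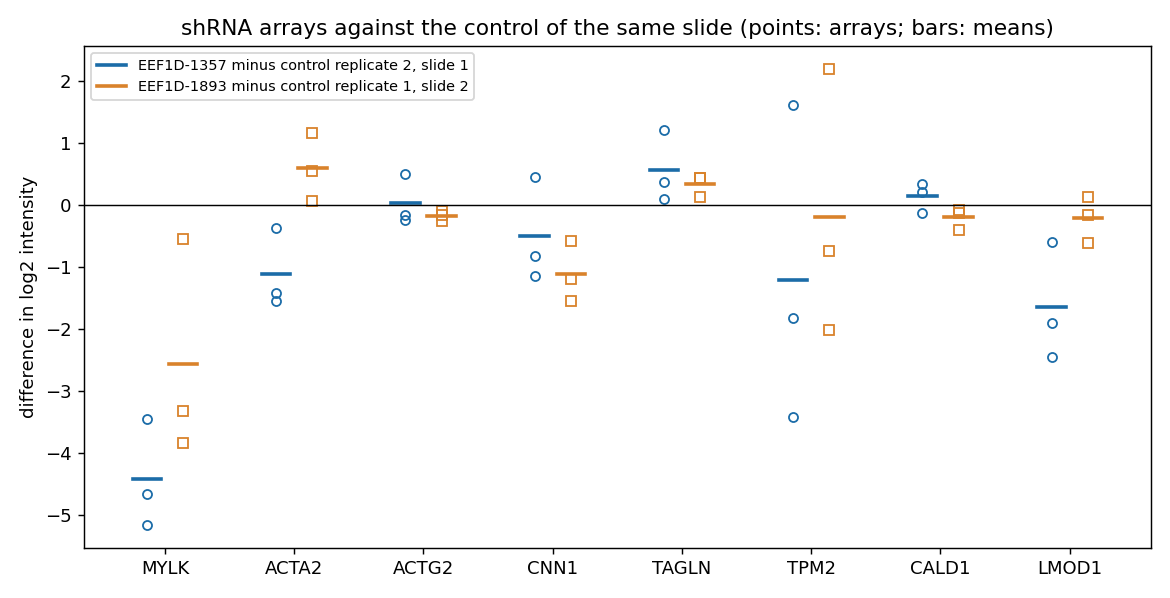
The difference in log2 intensity between each hairpin array and the control of its own slide is plotted for the brightest tested probe of the genes that were well above background in both hairpins, which leaves out OXTR and MYH11, with circles for EEF1D-1357 on slide 1, squares for EEF1D-1893 on slide 2, and bars for the means. The MYLK points lie below 0 on both slides, with means of -4.42 and -2.57, while the ACTA2 means lie on opposite sides of 0.

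The wider contractile machinery was described through a list of 48 other genes of the actin filament and of its transcriptional control by serum response factor (SRF) and the myocardin-related coactivators. Of these, 44 were tested, 0 passed in the hairpins against the controls (limma, adjusted p under 0.05; 4 in each direction at an unadjusted p under 0.05, a threshold that 18.4% of all tested probes passed), and their median was -0.10 against -0.06 for all probes. Of the 44, 27 were lower, beside 55.8% of all tested probes. Without control replicate 1 the count of 27 fell to 16, with a median of 0.10. MYOCD, the gene of myocardin, a coactivator of SRF on smooth muscle genes, was between -2.26 and -1.35 in the hairpin arrays and at -0.75 and -0.65 in the controls. Its log2 fold change was -1.13 (SE 0.24, adjusted p = 0.132 by limma). MKL1, the gene of another such coactivator, gave -0.54 (SE 0.12, adjusted p = 0.132 by limma), with hairpin arrays between 1.94 and 2.38 and controls at 2.70 and 2.71. CSRP2, which encodes a LIM protein of smooth muscle, gave 0.77 (SE 0.16, adjusted p = 0.131 by limma), and TMOD3, a tropomodulin that caps actin filaments, 0.89 (SE 0.21, adjusted p = 0.140 by limma). None of these 4 genes, named for the smallest p in the list, passed.

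The signalling route from the receptor to the kinase was described in the same way. Of 39 genes listed for oxytocin and Gq calcium signalling, 28 were tested. In the hairpin arrays 19 were lower and 9 higher, with a median of -0.16, beside 55.8% lower among all tested probes. By limma 0 passed. The unadjusted p was under 0.05 for 4 that were lower and 1 that was higher, beside 18.4% of all tested probes. Without control replicate 1 the split was 12 lower and 16 higher and the median 0.03. ITPR2, a receptor channel that releases stored calcium, gave -0.75 (SE 0.19, adjusted p = 0.147 by limma). GNAQ, the G protein alpha subunit that couples to the oxytocin receptor, gave -0.42 (SE 0.13, adjusted p = 0.197 by limma), and CAMK2G, a calmodulin-dependent kinase, -0.44 (SE 0.15, adjusted p = 0.206 by limma). PLCB4, a phospholipase C that Gq activates, gave 1.20 (SE 0.39, adjusted p = 0.199 by limma).

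Markers of the cell types that such a culture could hold were measured beside these genes. Of all tested probes, 55.8% were lower in the hairpins than in the controls, with a median of -0.06. The unadjusted p was under 0.05 by limma for 18.4% of them. Of 18 basal and myoepithelial markers on the array, 18 were well above background on all 8 arrays, and their median change in the hairpins against the controls was -0.11 (0.03 with normexp and quantile normalization), with 11 lower, 7 higher and 0 passing (2 higher at an unadjusted p under 0.05 by limma). ITGA6, an integrin of the basal surface, gave 0.52 (SE 0.17, adjusted p = 0.204 by limma), SNAI2, a transcription factor gene of basal cells, 0.75 (SE 0.30, adjusted p = 0.254 by limma), and the integrin gene ITGB1 0.54 (SE 0.26, adjusted p = 0.322 by limma). KRT5, a keratin of basal cells, gave -0.41 (SE 0.23, adjusted p = 0.370 by limma). Of 21 luminal markers on the array, 14 were well above background on all arrays, among them KRT8, KRT18 and the milk protein gene CSN2, whereas the hormone receptor genes ESR1, PGR and PRLR were well above background on 0 arrays. The luminal median was -0.32 over 15 tested, with 0 passing and 2 lower at an unadjusted p under 0.05 by limma, and it was 0.00 without control replicate 1. The 4 luminal genes with the smallest p were GATA3 (-0.50), KRT18 (-0.45), FOXA1 (-0.65) and CSN2 (-0.36), with an SE of 0.19 to 0.28 and an adjusted p of 0.236 to 0.349 by limma. So markers of both epithelial layers were present, and the arrays do not tell which cells held OXTR or MYLK.

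Non-epithelial markers were present in part. Beside them, 55.8% of all tested probes were lower, with a median of -0.06, and 18.4% had an unadjusted p under 0.05 by limma. For fibroblasts, 7 of 14 markers were well above background on all arrays, and 12 of the 14 were lower in the hairpin arrays, with a median of -0.37, 0 passing and 2 lower at an unadjusted p under 0.05 by limma. Without control replicate 1, 7 were lower and 7 higher and the median was -0.08. FAP (-0.67), S100A4 (-0.91), DPT (-0.39) and COL3A1 (-0.35) had the smallest p, with an SE of 0.21 to 0.38 and an adjusted p of 0.205 to 0.403 by limma. For pericytes and vascular smooth muscle, 5 of 10 were well above background on all arrays, with a median of -0.23 over 5 tested, which was 0.36 without control replicate 1, while RGS5 and PDGFRB were well above background on 0. After MYOCD, its genes with the smallest p were KCNJ8 (-0.38), CSPG4 (-0.23) and DES (-0.16), with an SE of 0.30 to 0.37 and an adjusted p of 0.519 to 0.824 by limma. For endothelium 1 of 9 was, with a median of -0.41 over the 4 tested (0.03 without control replicate 1), and PECAM1 and KDR were well above background on 0 arrays. The 4 were VWF (-0.71), ERG (-1.12), CDH5 (1.59, through a probe well above background on 2 arrays) and CLDN5 (-0.12), with an SE of 0.25 to 1.66 and an adjusted p of 0.278 to 0.833 by limma. For leukocytes 7 of 10 were, with a median of -0.16 (0.12 without control replicate 1), and CD3D (-0.63), CD14 (0.60) and LYZ (-0.16) were among those with the smallest p, with an SE of 0.15 to 0.58 and an adjusted p of 0.140 to 0.675 by limma. No gene of the last 3 lists passed (1, 0 and 1 had an unadjusted p under 0.05 by limma, all lower). The median, over the genes of a list, of the deviation from each gene's mean over the arrays was highest in control replicate 1 for the luminal (0.60), fibroblast (0.36), pericyte (0.79), endothelial (0.75) and leukocyte (0.50) markers, and between -0.40 and 0.00 in control replicate 2. Control replicate 2 lay within the range of the hairpin arrays for the first 4 of these lists and below it for leukocytes (-0.21 beside -0.16 to 0.13). The part of these markers in the OXTR, MYLK and LMOD1 differences was not tested.

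Finally, the genes whose profile over the 8 arrays was most like that of a given gene were looked up by Pearson's correlation among the brightest probes. These values describe 8 arrays that share groups and slides, and they carry no test. The OXTR profile includes 6 hairpin values that were not well above background, and it follows the difference from the controls on which OXTR was selected. Nearest to it was PIKFYVE (r = 0.982), followed by TPRG1 (well above background on 2 of 8 arrays), SLC23A3, FAH and INO80. PIKFYVE, a lipid kinase gene, was between -4.91 and -4.45 in the hairpin arrays and at -4.15 and -4.16 in the controls. Nearest to MYLK was NTN1 (r = 0.972), the gene of netrin-1, with MAEA, NFIB and SLC26A11 among the next. NTN1 was between -5.81 and -4.91 in the hairpin arrays and at -4.38 and -3.79 in the controls, and was well above background on 5 of 8 arrays. The MYLK profile too follows the difference from the controls on which MYLK was selected. Nearest to ACTA2 was the proteasome subunit gene PSMA5 (r = 0.977), then LRRC8C, LOC511229, HNRNPH3 and MPHOSPH9. For TPM2, which was added after its values were seen, the nearest were MASTL (r = 0.943), CENPL, CDR2, RRM1 and CDC25C. MASTL was well above background on 3 of 8 arrays. RRM1, a subunit gene of ribonucleotide reductase, was at 3.67 and 3.83 in replicate 3 of EEF1D-1357 and EEF1D-1893, between 2.65 and 3.28 in the other hairpin arrays and at 3.70 and 3.51 in the controls.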

How the data were processed

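Cy3-labelled RNA of 8 samples was measured on one-colour Agilent bovine arrays. Per the file headers, the deposited scanner values are Cy3 intensity, written by version 10.7.3.1 of Agilent Feature Extraction (9.1 per the submitters' processing notes), background-subtracted and detrended, with a surrogate value near background and no normalization between arrays. Flags of 0 or 1 per spot (well above background, saturated, outlier) come from the same deposited files. The table deposited by the authors holds log2 values with a median of 7.56 to 7.58 in each array, correlated at 0.998 to 1.000 with that array's scanner values; its scale and normalization are not given in the sources used here, and it served as an alternative.

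Of 43653 probes that are not controls, 238 with an outlier spot were left out (0 of the described genes), spots of a probe were averaged, and log2 intensity was reduced by each array's 75th percentile. A probe had to be well above background on 2 or more arrays, and the 30702 that were so were fitted with limma 3.58.1 in R 4.3.3, with 1 mean per group, 5 residual and 2.23 prior degrees of freedom, two-sided, and Benjamini-Hochberg adjustment over all of them at 0.05. Intervals (95%) come from the same fit. A bound sets a dim array to its lowest signal well above background, or to the probe's own value where that is higher. The genes, the gene lists and the tests were chosen with earlier results of these data known. The rule for named genes was every probe of the 10 genes, EEF1D, up to 4 genes per list by the smallest p against the controls, and the 5 genes most like OXTR, MYLK and ACTA2. The probe files gave gene names, and probe positions are those of the array design. Of these, 1 gene list, 2 genes and 1 probe sequence are not reported here. The workflow was tested on simulated data. The alternatives were normexp with quantile normalization, quantile or median scaling, no filter, a filter on all arrays, 1 probe per gene, the deposited table, a trended robust prior, slide or replicate as a block, the hairpin arrays alone, and each array left out.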

Additional observations from a re-analysis of the deposited data

Results flagged for a closer look

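CALD1 probe A_73_P371341 stood on opposite sides of the control mean in the hairpins, with all 3 EEF1D-1357 arrays below it (2.92, 2.63 and 3.20) and all 3 EEF1D-1893 arrays above it (3.55, 3.65 and 3.24), beside controls at 3.27 and 3.14. The difference between the hairpins was -0.57 (SE 0.19, adjusted p = 0.775 by limma), which did not pass, and it coincides with slide. The replicate 3 array of either hairpin lay between the controls.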

How the results depend on the processing

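In the fit described, 0 probes passed in each of the 4 contrasts (limma; 1913 for EEF1D-1357 against EEF1D-1893, 5656 for both hairpins, 5400 for EEF1D-1357 and 4603 for EEF1D-1893 against the controls at an unadjusted p under 0.05). With slide as a block, 8, 2179, 89 and 4541 passed in that order, and with a filter on all 8 arrays 8 passed for both hairpins against the controls. Leaving out 1 array gave 0 to 1, 0 to 6980, 0 to 6912 and 0 to 4541, and the highest of those against the controls came without control replicate 2. The fits with slide as a block and those without a control take the spread from the hairpin arrays alone. Those without a control leave 1 control, which is then assumed to vary like the other groups. The filter on all 8 arrays and the fits without a hairpin array keep both controls. Scaling, background correction, the deposited table, the prior and the remaining alternatives left the count at 0. With the replicate number as a block 0 passed in each contrast. The labels do not say whether the numbers pair the samples. Deviations of same-numbered arrays from their group means correlated between -0.072 and 0.157, which does not settle it.

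Of 179 alternative values of the hairpin difference over 9 genes, 170 kept their sign and their side of the threshold. Turned signs came with the slide block for ACTG2 (0.20), CNN1 (0.59), TAGLN (0.23) and CALD1 (0.34). Leaving out single arrays moved MYLK between -0.93 and 0.71 and TPM2 between -2.04 and 0.56, and MYLK was 1.08 without replicate 3 of both hairpins, an alternative chosen after seeing the data. The cause of these turns was not tested. Against the controls, 491 of 510 values moved by less than the spread between replicates; OXTR was -0.69, -0.84 and -0.55 with normexp (both hairpins, EEF1D-1357, EEF1D-1893), and the others were CNN1 and CALD1 values without a control or with the slide block. Signal near background limits OXTR, MYH11 and the dimmer probes of LMOD1 and TPM2.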

Other observations

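Some markers of basal cells, luminal cells and fibroblasts varied widely between replicates of one group; they were singled out after their values were seen, and no test was made. KRT14, a keratin of basal and myoepithelial cells, was at 5.25, 5.07 and 3.22 with EEF1D-1357, at 1.96, 0.20 and 6.41 with EEF1D-1893 and at 4.84 and 6.91 in the controls. The highest hairpin array for KRT14 was EEF1D-1893 replicate 3, which was also the highest hairpin array for MYLK. COL1A2, a fibrillar collagen gene of fibroblasts, was at -6.88, -7.26 and -6.65 with EEF1D-1357, at -6.79, -1.78 and 0.82 with EEF1D-1893 and at -3.66 and 0.23 in the controls, and it was well above background on 4 of 8 arrays. KRT19, a luminal keratin, was between 4.44 and 6.24 in the hairpin arrays and at 7.89 and 5.34 in the controls.

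The oxytocin gene itself, OXT, was well above background on all 8 arrays, between -3.28 and -2.59 in the hairpin arrays and at -2.06 and -3.30 in the controls, which enclose them.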
